A study of Mus musculus with 5 samples.

Results

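Spleens of mice lacking Sirt6 were set against a pool of wild-type spleen RNA on 2-colour microarrays. The 2 arrays labelled Spleen S6-/- with no further allele, out of 5 arrays in all, were taken from the deposited table of processed values. Each array was centred on its own median, and probes of a gene were averaged. The other 3 arrays carried spleen RNA of mice with the same Sirt6 genotype (S6-/-) that were also RelA+/-, and they were hybridised to a wild-type pool as well. The Sirt6 deletion is therefore shared by all 5 mutant samples, and the pool is the only wild-type sample. Its samples are biological replicates by the series' own account. Nothing in the sources used here gives age, sex, strain or how many animals went into a sample or the pool. The p-values below measure only the spread between these samples, and the SE given with a mean is limma's, which takes its spread from all 5 arrays. Per the labels, mutant RNA was labelled with Cy5 and pool RNA with Cy3 on all 5 arrays, 15 ug of amplified RNA per dye, and the dyes were not swapped.

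SIRT6 belongs to the sirtuins, enzymes that use NAD to remove acyl groups from lysines. It sits on chromatin, where it deacetylates histone H3, and is known for restraining NF-kB, hypoxia-inducible factor and insulin-like growth factor signalling at promoters and for supporting DNA repair. NF-kB is a family of dimeric transcription factors held in the cytoplasm by inhibitor proteins, and p65, the product of Rela, is its most studied activating subunit. The mouse spleen filters blood in its red pulp, where macrophages recycle iron and where red cells are still made after birth, and it holds B cell follicles, T cell zones and marginal zones in its white pulp. Which transcripts stand apart in the spleen without SIRT6 is the question this comparison addresses.

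A value is a log2 ratio of knockout spleen to the pool, so that 1 stands for 2-fold more and -1 for 2-fold less signal in the knockout. The direction is likely rather than certain, since it follows from the dyes in the labels and not from a stated formula. Where 2 values follow a gene's name, they are those of arrays 1 and 2 in that order. Of 14654 named genes on the array, 9961 had a value on both knockout arrays, 340 only on array 1, 533 only on array 2 and 3820 on neither. Over the 9961 genes the values of the 2 arrays correlated at r = 0.797, across genes that are not independent and that share the pool. The SD of gene values was 1.04 on array 1 and 1.19 on array 2. Between these arrays 88.9% of genes differed by at most 1 log2 unit. Over the 9000 genes with a value on every array, the knockout pair correlated at r = 0.823. The RelA+/- arrays correlated with each other at 0.335 (1 and 2), 0.214 (1 and 3) and -0.006 (2 and 3). With knockout arrays 1 and 2, r was 0.392 and 0.588 for RelA+/- array 1 and 0.460 and 0.376 for array 2. For RelA+/- array 3 it was -0.156 and -0.017. The RelA+/- arrays are therefore not a uniform group in the counts below. The limma test of the knockout mean against 0 called 0 of 9961 genes at an adjusted p under 0.05 (0.0%), the smallest adjusted p being 0.0875. The count depended on the setting: leaving out the 25% of genes that varied least gave 829 calls, and 3057 were made in a fit of the 2 knockout arrays alone. At an unadjusted p under 0.05 it had 2126 genes (21.3%), 1080 above and 1046 below the pool. No gene named below passed the adjusted threshold, and what follows describes genes by their values on both arrays. A gene is counted as 2-fold or more above or below the pool where both arrays lie at least 1 log2 unit on the same side. By that rule 883 genes (8.86%) were above and 995 genes (9.99%) below, and these shares are the background, beside 40.3% of genes above and 40.9% below the pool on both arrays by any amount (81.2% on 1 side), for the counts of each gene group. Just inside the rule were Trim9 (1.0 and 2.41) and Fam53b (-1.16 and -1.0), and just outside it Pgm1 (1.28 and 0.998).

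The knockout itself could not be checked, because neither of the 2 Sirt6 probes had a value on a knockout array. Their only value in the series was -4.31, for 1 probe on RelA+/- array 2. Rela lay at 0.48 and 1.07. Of 45 genes that define spleen cell types and neighbouring tissues, 34 had a value on both arrays. The B cell genes Ms4a1, Cd79a and Cd79b, the T cell genes Cd3d, Cd3e and Cd3g, the red pulp transcription factor gene Spic and the follicle chemokine gene Cxcl13 were among them, while Pax5, Lck, Cd8a and Cd68 were not. Neither skeletal muscle gene of that set, Ckm or Acta1, had a value on both arrays. A ratio gives no level of its own, and fewer cells of a type cannot be told apart from less RNA per cell anywhere in these data. The 3 measured Y-linked genes were above the pool, with Uty at 2.68 and 2.72, Kdm5d at 2.13 and 2.19 and Eif2s3y at 2.13 and 2.78. These 3 genes were above the pool on all 3 RelA+/- arrays too, with Uty at 2.46, 2.96 and 2.44. Genotype and a difference in sex between the spleens and the pool therefore cannot be told apart.

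**Figure D1:**
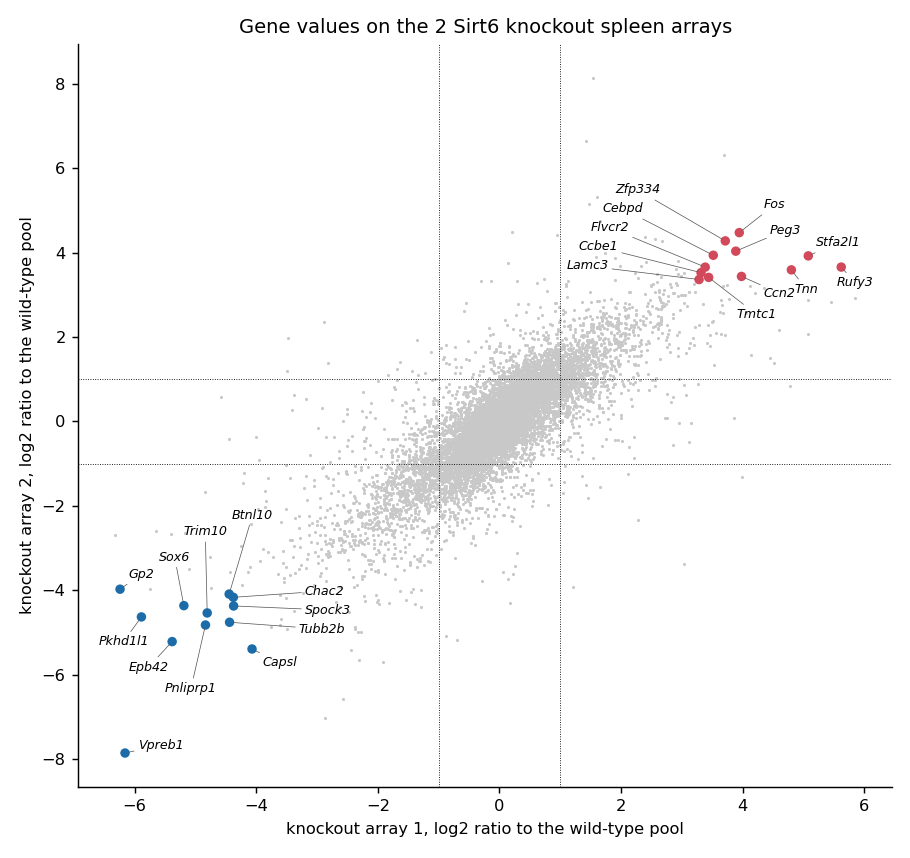
Each grey point is 1 of 9961 genes, with its log2 ratio to the wild-type pool on knockout array 1 (horizontal axis) and array 2 (vertical axis). Dotted lines mark 2-fold, and the 12 named genes farthest above (red) and below (blue) by the smaller of their array values are labelled, from Vpreb1 at -6.16 and -7.85 to Rufy3 at 5.62 and 3.66.

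The 12 genes farthest below the pool on both arrays included Vpreb1, red cell genes and acinar cell genes of the pancreas. Vpreb1, which encodes part of the surrogate light chain of the pre-B cell receptor, lay at -6.16 and -7.85, with a mean of -7.01 ± 0.82 (SE, n = 2). It was also below the pool on the RelA+/- arrays that measured it, at -2.22 and -5.22. Epb42, for a protein of the red cell membrane skeleton, lay at -5.38 and -5.21, and Trim10, a gene of terminal red cell differentiation, at -4.81 and -4.54. Sox6, a transcription factor gene of red cell maturation, lay at -5.19 and -4.36. Gp2 and Pnliprp1, for a zymogen granule membrane protein and a lipase-related protein of pancreatic acinar cells, lay at -6.24 and -3.97 (Gp2) and -4.84 and -4.82 (Pnliprp1). Pkhd1l1 lay at -5.89 and -4.63, Btnl10 at -4.45 and -4.09, the glutathione-degrading enzyme gene Chac2 at -4.38 and -4.17, the tubulin gene Tubb2b at -4.44 and -4.76, the matrix proteoglycan gene Spock3 at -4.37 and -4.37 and Capsl at -4.07 and -5.39. On the RelA+/- arrays Epb42 lay at -2.09, -1.42 and 2.09, so that the third of these arrays was above the pool and the knockout arrays were below all of them. Limma's adjusted p for these 12 genes against the pool ranged from 0.0875 to 0.127.

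The 12 genes farthest above the pool on both arrays ranged from Fos to Lamc3. Fos, a subunit gene of the AP-1 factor, lay at 3.94 and 4.47, and Cebpd, a transcription factor gene of the acute phase response, at 3.52 and 3.94. Cebpd had a mean of 3.73 ± 0.63 (SE, n = 2), and on the RelA+/- arrays it lay at -0.050, 0.10 and -2.35, all below both knockout values. Ccn2, a matrix-associated growth factor gene, lay at 3.98 and 3.43 and the tenascin gene Tnn at 4.802 and 3.59. Ccbe1 lay at 3.32 and 3.52 and the laminin gene Lamc3 at 3.28 and 3.36. Peg3, an imprinted gene expressed from the paternal copy, lay at 3.89 and 4.03 with a mean of 3.96 ± 0.49 (SE, n = 2). Stfa2l1, of the stefin family of protease inhibitors found in neutrophils, lay at 5.08 and 3.92 against -3.54, -0.46 and -4.89 on the RelA+/- arrays. Its relatives are close in sequence, so that a probe of 1 may bind another. Flvcr2, a transporter gene of the major facilitator family, lay at 3.38 and 3.65, and Zfp334 lay at 3.71 and 4.28, Rufy3 at 5.62 and 3.65 and Tmtc1 at 3.44 and 3.41. Limma's adjusted p for these 12 genes ranged from 0.0875 to 0.14.

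**Figure D2:**
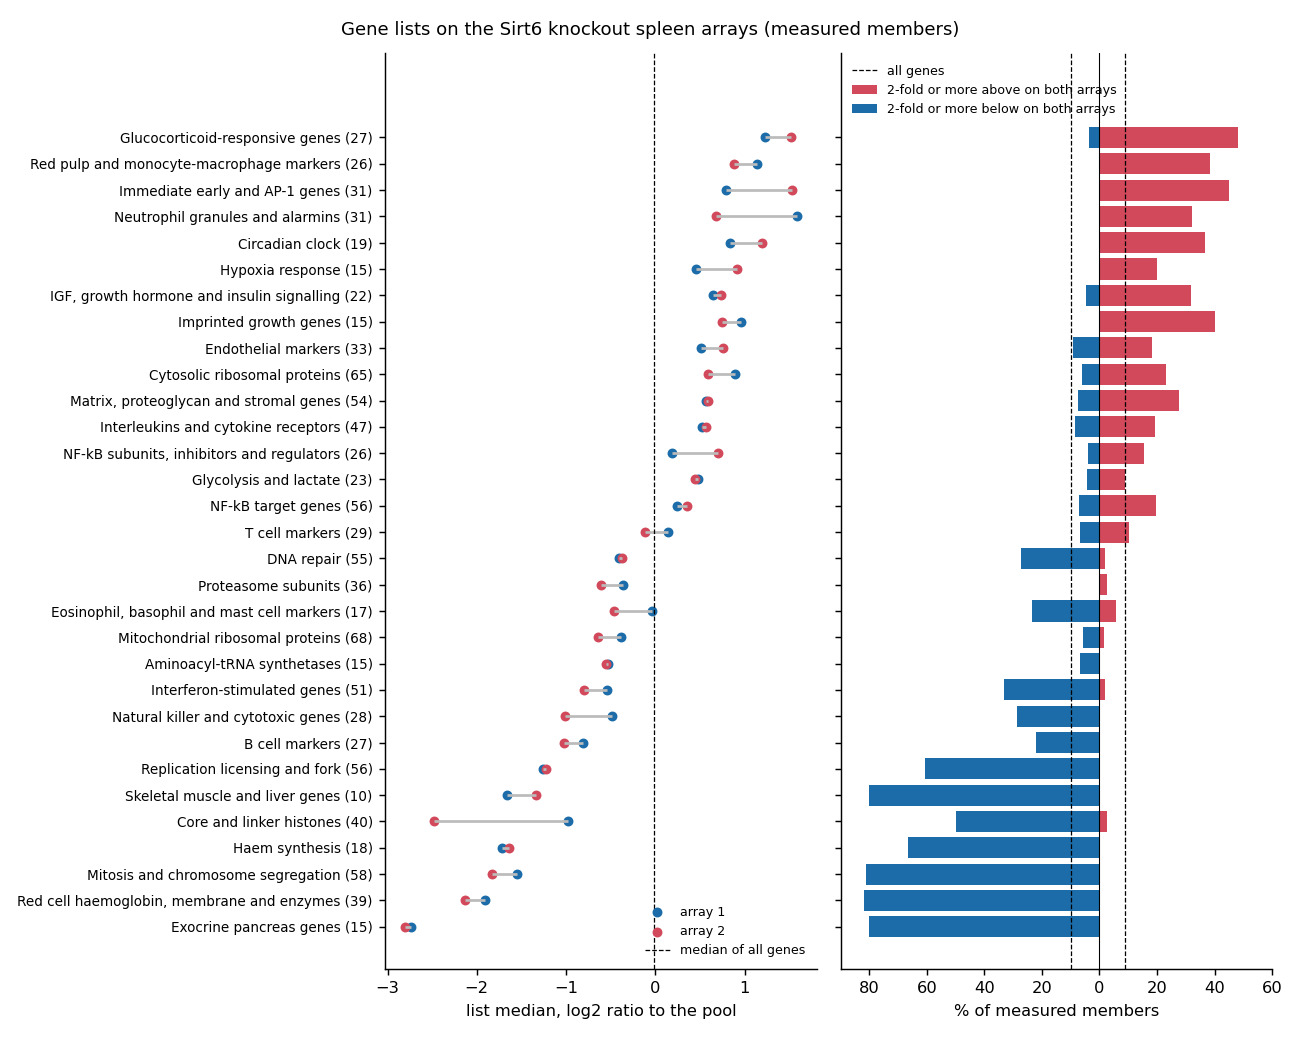
Left, the median log2 ratio to the pool of each gene list on knockout arrays 1 (blue) and 2 (red), with the number of measured members in brackets and the median of all genes as a dashed line. Right, the percent of measured members 2-fold or more above (red) or below (blue) the pool on both arrays, beside the shares over all genes (dashed). By the median over the means of both arrays the exocrine pancreas list is lowest (-2.77). Apart from the Y-linked and X-inactivation genes (1.95), glucocorticoid-responsive genes are highest (1.53), while single arrays order the lists differently.

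Red cell genes lay below the pool as a group. Of 39 measured genes for haemoglobin, the red cell membrane, its enzymes and its transcription factors, 37 were below on both arrays and 32 (82.1%) were 2-fold or more below, with none 2-fold above. Their median was -2.00, against -0.0185 over all genes. Among membrane proteins, Rhag of the Rhesus complex lay at -3.37 and -3.595, Rhd at -3.304 and -3.49, the anion exchanger gene Slc4a1 at -3.56 and -3.06, the blood group gene Kel at -2.88 and -2.68, the spectrin gene Sptb at -3.94 and -3.31 and the actin-capping gene Tmod1 at -3.54 and -3.81. The regulators were low too. Klf1, the erythroid Krueppel-like factor gene, lay at -2.69 and -2.45, Gata1 at -1.19 and -1.37, its cofactor gene Zfpm1 at -1.82 and -1.71, Lmo2 at -1.72 and -2.13, Tal1 at -1.09 and -1.999, Nfe2 at -1.28 and -1.15 and Hemgn at -3.55 and -3.71. Epor, the erythropoietin receptor gene, lay at -1.33 and -1.098. The alpha globin gene Hba-a1 was farther below on array 2 (-0.74 and -2.26), and Car1, a carbonic anhydrase gene, lay on opposite sides of 0 (0.14 and -1.14). On the RelA+/- arrays the list medians were -1.14, -0.59 and 1.31, and in 28 of 39 genes both knockout arrays were below all 3 (14.4% of all genes).

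Short promoter stretches of Epb42 and Trim10 show a GATA motif before the start of these low genes. The bases are those of RefSeq on GRCm38.p6, read 5' to 3' on the gene's strand, and capitals mark AGATAAG on either strand. Epb42 lies at chr2:121037058-121037127 on the reverse strand and Trim10 at chr17:36869370-36869456 on the forward strand.
Epb42: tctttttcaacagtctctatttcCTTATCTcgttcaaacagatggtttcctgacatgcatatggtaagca
Trim10: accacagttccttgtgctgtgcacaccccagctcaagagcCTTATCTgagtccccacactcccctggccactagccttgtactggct
The motif, searched on both strands in the 250 bases before the start, was present in 7 of 29 red cell promoters (24.1%) and in 2.29% of 8118 promoters of measured genes.

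Haem synthesis enzymes after the first step were low. Alad lay at -2.397 and -1.76, Uros at -2.99 and -2.88, Urod at -2.21 and -2.18, Cpox at -3.89 and -3.02, Ppox at -2.19 and -2.12 and Fech at -2.16 and -2.87. Fech, which inserts iron into the porphyrin ring, had a mean of -2.52 ± 0.72 (SE, n = 2). The first enzyme, which has a housekeeping and an erythroid form, stood apart. The housekeeping form Alas1 lay at 0.73 and 0.99, and the erythroid form Alas2 lay at 0.01 on array 1 and -1.35 on array 2, away from the other erythroid enzymes on array 1. Mitochondrial transporters of the erythroid pathway were low, with Slc25a38, which imports glycine, at -1.804 and -1.702 and Abcb10 at -3.14 and -2.69. In all, 12 of 18 measured haem genes were 2-fold or more below (66.7%) and none above. In haem breakdown, Hmox1, the inducible haem oxygenase gene of macrophages, lay at 1.45 and 0.68, and Blvrb, a biliverdin reductase gene abundant in red cells, at -1.31 and -1.26.

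Iron genes lay on both sides of the pool. The mitoferrin gene Slc25a37, which carries iron into erythroid mitochondria, lay at -3.55 and -3.36, the endosomal ferrireductase gene Steap3 at -2.78 and -3.19, and the transferrin receptor genes Tfr2 (-1.83 and -1.44) and Tfrc (-1.77 and -1.21). Slc40a1, for the iron exporter ferroportin of red pulp macrophages, lay at 2.2 and 1.71. The ferritin light chain gene Ftl1 lay at 1.001 and 0.705, and the heavy chain gene Fth1 at 0.44 and -0.77. Of 20 measured iron genes, 4 were 2-fold or more below and 1 above.

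**Figure D3:**
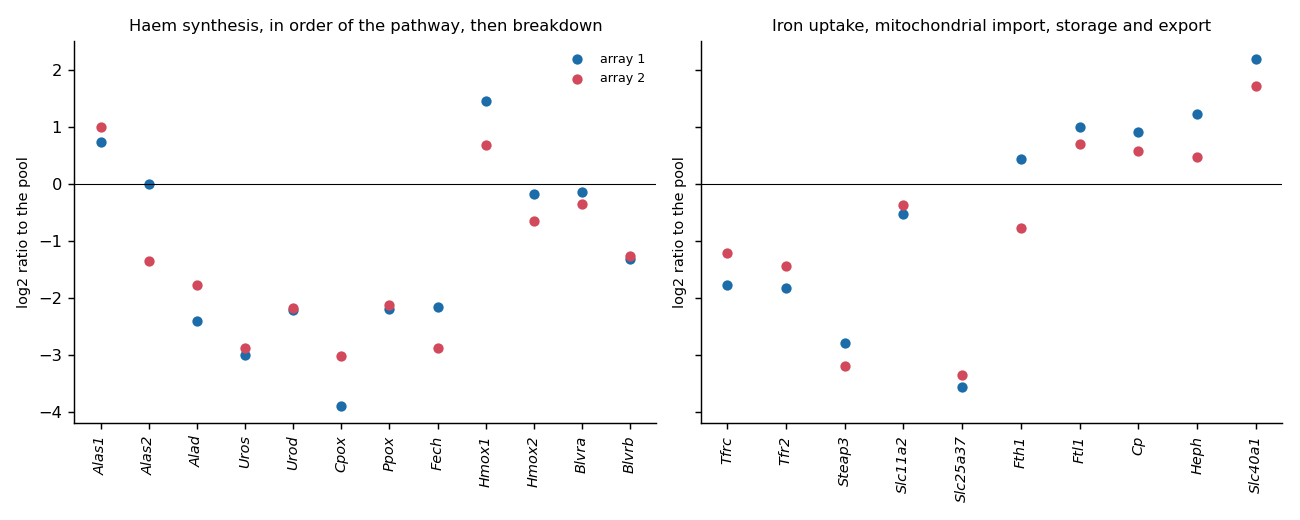
Log2 ratio to the pool on knockout arrays 1 (blue) and 2 (red) for genes of haem synthesis and breakdown in pathway order (left) and of iron handling from uptake to export (right). The enzymes from Alad to Fech lie between -1.76 and -3.89, while Alas1, Hmox1 and Slc40a1 lie above 0 on both arrays.

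Mitosis genes were low, by count more of them than in any other list and by share close to the red cell list. Of 58 measured genes of mitosis and chromosome segregation, 56 were below on both arrays and 47 (81.0%) were 2-fold or more below, with a median of -1.77. Cdk1, the kinase that drives entry into mitosis, lay at -2.08 and -2.49, the cyclin gene Ccnb2 at -1.73 and -2.74, the spindle motor gene Kif11 at -2.06 and -2.801, the centromere gene Cenpk at -2.59 and -3.04, the hyaluronan-mediated motility receptor gene Hmmr at -2.497 and -3.29 and the kinase gene Pbk at -2.42 and -2.72. The exceptions were Ccna2, for cyclin A, with arrays on different sides (0.35 and -1.77), and H2az1, for a histone variant (0.38 and 0.302). Of 56 replication genes, 52 were below on both arrays and 34 (60.7%) were 2-fold or more below. They included Ccne2 (-3.19 and -3.48), which brings cells into S phase, the helicase activator gene Cdc45 (-2.18 and -2.75), the ribonucleotide reductase gene Rrm2 (-2.07 and -2.699), the thymidylate synthase gene Tyms (-1.83 and -2.85), the dUTPase gene Dut (-2.26 and -2.23) and the sliding clamp gene Pcna (-1.88 and -1.78). Of the origin recognition genes Orc6 lay at -1.24 and -0.89, while Orc2, Orc3 and Orc5 stood nearer to 0, at -0.62 and -0.28 (Orc2), 0.21 and 0.39 (Orc3) and -0.34 and -0.204 (Orc5). The 2 probes of Orc3 disagreed in sign. The mitosis list had medians of -1.55 and -1.84 in the knockout and -1.56, -0.455 and 1.03 with RelA+/-, so that the groups overlapped. The red cell list was low on the same knockout arrays, and red cell precursors divide; the part of one list in the other was not tested.

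Promoters of Cdk1 and Kif11 carry the letters of the cell cycle elements known from such genes, TTTGAA and CCAAT. Capitals mark either motif on either strand, with RefSeq bases of GRCm38.p6 at chr10:69352913-69353002 on the reverse strand and chr19:37376327-37376378 on the forward strand.
Cdk1: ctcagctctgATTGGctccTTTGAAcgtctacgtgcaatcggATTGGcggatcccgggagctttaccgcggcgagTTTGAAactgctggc
Kif11: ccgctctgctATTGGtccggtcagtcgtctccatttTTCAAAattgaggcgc
TTTGAA was present in 16 of 46 mitosis promoters (34.8%) against 13.5% of all promoters, and CCAAT in 69.6% against 40.8%. In replication promoters CCAAT was present in 61.2% and TTTGAA in 20.4%.

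Histone genes were low but unevenly between the arrays, with list medians of -0.98 on array 1 and -2.48 on array 2. Of 40 measured genes, 20 (50%) were 2-fold or more below and 1 above. H2bc3, a replication-dependent histone gene, lay at -1.99 and -4.33, H1f5, a linker histone gene, at -1.73 and -3.73, and H4c14 at -1.82 and -4.31. H3f3b, a replacement histone gene expressed outside S phase, lay at 1.08 and 0.998, and H2ac18 at 2.42 and 1.41. Core histone genes are close to identical, and a probe for 1 may bind others.

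The lowest DNA repair genes included those of homologous recombination and its checkpoint, with Bard1 at -2.62 and -3.097, Chek1 at -2.66 and -3.09, Rad51c at -2.16 and -2.13, Brca1 at -1.78 and -1.402 and Exo1 at -2.22 and -1.49. The end-joining gene Xrcc6, for the Ku70 subunit, lay at -1.63 and -2.07, whereas Xrcc5, for its partner, lay at -0.34 and -0.053. The damage recognition gene of nucleotide excision repair, Xpc, lay at 1.46 and 1.17, and Ddb2 and Ercc5 of the same pathway at 0.56 and 1.16 (Ddb2) and 0.59 and 1.23 (Ercc5). Among base excision genes, a pathway in which SIRT6 has been studied, Ogg1 lay at -0.28 and 0.089, Polb at -0.78 and -0.49 and Apex1 at -0.72 and -1.33, and Parp1 lay at -0.66 and -1.45. Over 55 genes, 15 were 2-fold or more below (27.3%) and 1 above. Helicases lost in human progeroid syndromes, Wrn and Blm, lay at -1.305 and -1.09 (Wrn) and -1.56 and -1.01 (Blm), and the telomere-binding gene Terf1 at -0.69 and -0.65.

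Brakes on the cell cycle lay on both sides. Cdkn1c, an imprinted inhibitor of cyclin-dependent kinases, lay at 1.74 and 1.75, and Cdkn1a, the p53 target for p21, at 0.53 and 1.98. Cdkn2b lay at -1.75 and -1.42, Cdkn1b at -0.78 and -1.26, the retinoblastoma gene Rb1 at -1.91 and -2.099 and the damage-inducible gene Gadd45a at -1.58 and -2.02. Of 32 measured genes in this list, 2 were 2-fold or more above and 3 below. Cdkn2a had no value on either knockout array.

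Genes of the other measured sirtuins lay within 2-fold of the pool on both arrays. Sirt1 lay at -0.62 and -0.16, Sirt2 at 0.12 and -0.097, Sirt5, the mitochondrial desuccinylase gene, at 0.79 and 0.802, and Sirt3, whose probes disagreed in sign, at -0.201 and -0.17. Among deacetylases Hdac4 was highest (1.37 and 1.304). Genes around methylated lysine 9 of histone H3, a residue SIRT6 deacetylates, included the methyltransferase gene Suv39h2 at -2.27 and -2.49 and the heterochromatin protein genes Cbx1 (-1.65 and -2.26), Cbx3 (-0.94 and -1.85) and Cbx5 (-0.95 and -0.27). Nmnat3, for an enzyme of NAD synthesis, lay at -1.896 and -1.85. In this list of 27, 1 gene was 2-fold or more above and 3 were below.

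B cell genes were moderately low and none was above the pool on both arrays. Of 27 measured, 23 were below on both and 6 (22.2%) were 2-fold or more below, with a median of -0.94. The follicle-homing receptor gene Cxcr5 lay at -1.76 and -2.18, the complement receptor gene Cr2 of marginal zone and follicular B cells at -1.14 and -1.81, the adaptor gene Blnk at -1.401 and -1.52 and Cd24a, high on immature B cells, at -2.04 and -2.096. The receptor chain genes Cd79a lay at -0.83 and -1.01 and Cd79b at -0.83 and -1.39, and Ms4a1, for CD20, at -0.798 and -1.08. Vpreb3, which assists assembly of the pre-B receptor, lay at -2.17 and -2.44. Of 9 measured genes of B cell precursors and germinal centres, 5 were above and 2 below on both arrays, and Vpreb1 alone was 2-fold or more below, with a list median of 0.0975. The cytokine receptor gene Il7r lay at 1.02 and 0.55 and the transcription factor gene Erg at 1.197 and 0.55. The recombination genes of lymphocyte precursors had a value on 1 array at most: Rag1 lay at -7.83 on array 2, Rag2 at -1.01 on array 1 and Dntt at -1.23 on array 2. Rgs13, a germinal centre gene, lay at -4.74 on array 1, while Bcl6, a regulator of the germinal centre, lay at 0.065 and 0.804 and the receptor gene S1pr2 at 0.68 and 0.93. Among plasma cell genes Jchain lay at 0.24 and -0.090, Mzb1 at -0.64 and -0.57 and Slamf7 at -1.13 and -1.59.

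T cell genes showed no common direction. Of 29 measured, 13 were above and 11 below on both arrays, with a median of 0.11. The receptor complex genes Cd3d lay at 0.46 and 0.27 and Cd3e at 0.62 and 0.28, Cd3g at -0.047 and -0.65 and Cd4 at 0.31 and 0.94. Il2ra, the high-affinity interleukin receptor chain of activated and regulatory T cells, lay at 2.15 and 1.69, and Ctla4, an inhibitory receptor gene of the same cells, at 1.41 and 1.301. Foxp3, the transcription factor gene that defines regulatory T cells, lay at -1.19 and -1.27, with probes that disagreed in sign.

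Natural killer and cytotoxic genes were low, most of all on array 2 (list medians -0.485 and -1.01). The effector cytokine gene Ifng lay at -3.15 and -3.15, Gzmk, for a granzyme, at -2.79 and -2.78, and Gzma at -1.67 and -2.12. The lectin receptor genes Klre1 lay at -3.28 and -2.76 and Klra3 at -2.02 and -2.39, the chemokine gene Xcl1 at -2.32 and -2.92 and the transcription factor gene Eomes at -2.91 and -1.11. Ifng had a mean of -3.15 ± 0.49 (SE, n = 2). The perforin gene Prf1 lay at 0.51 and 0.65 and Gzmb at 0.042 and -0.29. Of 28 measured, 8 (28.6%) were 2-fold or more below and none above.

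Antigen presentation and dendritic cell genes lay on both sides of the pool. The class II gene H2-Aa lay at 1.32 and 1.05, the invariant chain protease gene Ctss at 1.19 and 1.02 and the integrin gene Itgax at 0.95 and 1.58. Siglech, of plasmacytoid dendritic cells, lay at -1.53 and -1.99, Ccl22, a chemokine gene of dendritic cells, at -2.42 and -2.37, and Cd209a at -1.199 and -1.12. Clec9a, of cross-presenting dendritic cells, lay at -0.598 and -0.56. Of 30 measured, 2 were 2-fold or more above and 3 below.

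Interferon-stimulated genes were low on both arrays. Of 51 measured, 37 were below on both and 17 (33.3%) were 2-fold or more below, with a median of -0.71. The oligoadenylate synthetase genes Oas1g lay at -2.82 and -3.201, Oas1a at -1.84 and -1.92, Oas3 at -2.58 and -1.75, Oasl1 at -2.23 and -3.17 and Oasl2 at -1.75 and -1.34. Isg15, the ubiquitin-like modifier gene, lay at -2.56 and -2.65, its protease gene Usp18 at -2.88 and -2.49, the exonuclease gene Isg20 at -2.85 and -3.13 and Ifit1 at -2.35 and -2.11. The immunity-related GTPase genes Irgm1 lay at -1.77 and -2.21, Irgm2 at -1.81 and -1.85 and Igtp at -1.44 and -1.698. The 1 member 2-fold or more above was Ifitm1, a membrane protein gene of the Ifitm family, at 1.89 and 2.04, while Ifitm2 lay at 1.15 and 0.69 and Ifitm3 at 0.14 and 0.14. Genes of the signalling steps upstream lay on both sides. Irf9 lay at -1.39 and -0.91, Irf7 at -0.85 and -0.59, Stat2 at -0.088 and 0.52 and Irf1 at -0.14 and -0.22, with probes of Irf1 that disagreed in sign, and the receptor genes Ifnar1 (0.397 and 0.53) and Ifngr1 (1.51 and 0.74). The list medians on the RelA+/- arrays were 0.435, 0.499 and -0.253, above both knockout medians of -0.538 and -0.795. In 26 of 50 genes measured on all 5 arrays both knockout arrays were below all 3 others (14.4% of all genes).

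Promoters of Oas1g and Isg15 hold the interferon response letters GAAA and GAAA with 2 free bases between, marked in capitals on either strand, runs of overlapping matches included, in RefSeq bases of GRCm38.p6 at chr5:120887614-120887671 on the reverse strand and chr4:156200847-156200936 on the reverse strand.
Oas1g: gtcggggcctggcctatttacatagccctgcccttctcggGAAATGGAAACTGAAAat
Isg15: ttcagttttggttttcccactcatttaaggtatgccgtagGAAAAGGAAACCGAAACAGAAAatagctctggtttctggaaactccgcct
These letters were present in 18 of 43 promoters of the list (41.9%) and in 3.39% of all promoters. Among genes 2-fold or more below the pool as a whole the share was 4.26%.

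Neutrophil genes were above the pool, and more so on array 1 (list medians 1.59 and 0.676). The alarmin genes S100a8 lay at 4.52 and 1.39 and S100a9 at 3.72 and 2.04, the antimicrobial peptide gene Camp at 3.49 and 2.35, the chitinase-like gene Chil3 at 3.47 and 1.77 and the stefin gene Stfa3 at 4.35 and 3.17. The interleukin 1 decoy receptor gene Il1r2 lay at 2.597 and 3.48 and the chemokine receptor gene Cxcr2 at 2.06 and 1.69. Granule genes of early neutrophil stages differed between the arrays, with Elane at 1.12 and -0.66, Ctsg at 1.27 and -0.28 and Ngp at 2.21 and -0.36 on different sides of the pool and Prtn3 at 1.32 and 0.11. Of 31 measured genes 10 (32.3%) were 2-fold or more above and none below. Eosinophil granule genes lay below, with Epx at -2.35 and -3.88, Prg2 at -1.54 and -2.69 and Prg3 at -2.31 and -2.83, while the mast cell protease genes Cpa3 lay at 0.36 and 0.034 and Mcpt4 at 0.077 and 0.198 and the receptor gene Kit at 0.75 and 1.43. In that list 4 of 17 were 2-fold or more below and 1, Gata2 (1.204 and 2.42), above.

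Macrophage and monocyte genes lay above the pool in 19 of 26 measured, 10 of them 2-fold or more (38.5%). The adhesion molecule gene Vcam1 of red pulp macrophages lay at 2.71 and 2.74, the mannose receptor gene Mrc1 at 2.46 and 1.86, the Fc receptor genes Fcgr1 (1.83 and 2.27) and Fcgr4 (1.29 and 1.203), and Axl, a receptor for apoptotic cells, at 1.74 and 1.603. The red pulp factor gene Spic lay at 0.61 and 0.45. Marginal zone macrophage genes Marco, Siglec1 and Timd4 stood at the level of the pool or just below, at -0.023 and -0.041 (Marco), -0.204 and -0.24 (Siglec1) and -0.23 and -0.36 (Timd4). Adgre1, for F4/80, lay at -0.21 and -1.66 with probes that disagreed in sign. Complement genes had no common direction, with the inhibitor gene Serping1 at 1.06 and 1.02, C1qb at 1.63 and 0.54 and Cfb at -0.47 and -0.69. The endotoxin coreceptor gene Cd14 lay at 1.35 and 2.16 and the binding protein gene Lbp at 1.502 and 1.02, while Tlr4 lay at 0.082 and -0.49, Tlr2 at 0.35 and -0.16 and the inflammasome gene Nlrp3 at -1.25 and -1.496. Tlr6 was 2-fold or more from the pool on opposite sides, at 3.99 and -1.32, as were 25 genes in all.

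NF-kB genes and targets lay on both sides of the pool. Of its subunit genes Rela lay at 0.48 and 1.07 and Rel at -1.13 and -1.27, Relb at -0.013 and 0.46 and Nfkb2 at -0.502 and 0.42. The inhibitor genes Nfkbib (2.51 and 2.73), Nfkbia (1.34 and 1.57) and Nfkbiz (1.12 and 2.96), a nuclear inhibitor gene, were 2-fold or more above. So was Tnip2 (1.19 and 1.16), while the inhibitor gene Nfkbie lay at -0.79 and -1.18. Tnfaip3, for the deubiquitinase A20, lay at 0.73 and 1.27, and the kinase gene Ikbkb at 0.57 and 1.04. Nfkbib had a mean of 2.62 ± 0.34 (SE, n = 2) and lay at 0.28, 0.79 and 0.18 on the RelA+/- arrays. Of 26 measured genes 4 were 2-fold or more above (15.4%) and 1, Rel, below. Of 56 targets 11 (19.6%) were 2-fold or more above and 4 (7.14%) below, with a median of 0.29. Those above included Ier3 (2.39 and 3.02), Csf1 (1.92 and 2.69), Vegfa (1.84 and 2.91), Il1b (1.96 and 1.84), Cxcl1 (1.47 and 5.16) and the acute phase gene Saa3 (1.56 and 1.75). The survival gene Bcl2l1 lay at -2.56 and -3.08, Tnfaip2 at -1.56 and -2.78 and Cxcl10, also an interferon target, at -1.19 and -1.31. The classical targets Tnf lay at 0.18 and 1.15, Icam1 at 0.68 and 0.34 and Sod2 at -0.33 and -0.41. On the RelA+/- arrays the target list had medians of 0.877, 0.39 and -0.367, which lie on both sides of the knockout medians of 0.243 and 0.351. Bcl2l1 is also an erythroid survival gene, Tnfaip2 and Saa3 are found in myeloid cells, and the part of cell composition in these values was not tested.

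The kappa B motif GGGAC followed at once by TTTCC was present in 3 of 42 target promoters (7.14%) and in 0.234% of all promoters. These 3 stretches are shown because the genes stand on different sides of the pool: Csf1 above, Ltb below (-0.68 and -1.03) and Nfkb2 on both sides. Capitals mark the motif on either strand in RefSeq bases of GRCm38.p6, at chr3:107760574-107760663 on the reverse strand, chr17:35194380-35194469 on the forward strand and chr19:46305680-46305754 on the forward strand.
Csf1: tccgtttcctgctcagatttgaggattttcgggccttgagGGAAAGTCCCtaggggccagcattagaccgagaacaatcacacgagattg
Ltb: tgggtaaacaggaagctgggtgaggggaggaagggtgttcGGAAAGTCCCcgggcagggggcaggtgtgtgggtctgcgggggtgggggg
Nfkb2: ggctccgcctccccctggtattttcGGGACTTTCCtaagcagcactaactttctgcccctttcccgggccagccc
A looser form, GGG and TCC with 4 free bases between, which includes the first, was present in 45.2% of target promoters and 23.8% of all promoters, and in 27.3% of genes 2-fold or more above the pool and 22.3% of those below.

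Cytokine and receptor genes lay above the pool more often than below, in 33 and 12 of 47 measured. Receptor and signalling genes of the interleukin 6 family lay above, with the shared receptor gene Il6st at 1.96 and 2.34, Osmr, the oncostatin M receptor gene, at 2.08 and 2.67, and the transducer gene Stat3 at 0.93 and 1.81. Their feedback inhibitor gene Socs3 lay at 1.604 and 2.86. Stromal cytokine genes Il7 lay at 1.75 and 1.72 and Tslp at 2.002 and 1.701, and Il18rap, a chain of the interleukin 18 receptor, at 2.39 and 2.27. Csf3, for granulocyte colony-stimulating factor, lay at -2.38 and -4.87, and its receptor gene Csf3r at 1.59 and 0.903. Il27, made by activated myeloid cells, lay at -3.44 and -1.34. Il6 itself had no value on either array. Among 39 chemokine and receptor genes, 4 were 2-fold or more above and 5 below. Ccr1 lay at 2.23 and 1.79, and the atypical receptor gene Ackr1, found on red cells and venules, at -2.56 and -2.604. Ccl21a and Ccl19, which position T cells, lay at 0.62 and 0.22 (Ccl21a) and -0.47 and -1.06 (Ccl19), and Cxcl13, which draws B cells into follicles, at 0.47 and 0.57. In the TNF superfamily, Tnfrsf11a, for the receptor RANK, lay at 2.85 and 2.44, the lymphotoxin receptor gene Ltbr at 1.27 and 1.46, Tnfrsf14 at -2.04 and -2.09 and Tnfrsf19 at -2.47 and -2.59.

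Immediate early genes lay above the pool, and farther on array 2 (list medians 0.794 and 1.53). Besides Fos, the zinc finger gene Egr1 lay at 1.61 and 5.32, Fosl2 at 1.898 and 3.87, Atf3 at 1.39 and 2.46, the orphan receptor gene Nr4a1 at 1.13 and 3.33, Jun at 1.08 and 1.57 and Junb at 1.07 and 2.27. The phosphatase gene Dusp1 lay at 2.91 and 3.27 with a mean of 3.09 ± 0.41 (SE, n = 2). As Egr1 and Nr4a1 show, arrays could differ widely, and Fosb lay at 0.67 and 2.71. These 3 differed between the arrays by over 2 log2 units. Egr2, Nr4a2 and Btg2 lay below the pool on array 1 and above it on array 2, at -1.13 and 1.65 (Egr2), -0.92 and 1.52 (Nr4a2) and -0.88 and 1.38 (Btg2). Myc lay at -0.36 and -0.24, with probes that disagreed in sign. Of 31 measured genes 14 (45.2%) were 2-fold or more above and none below.

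Apart from the Y-linked and X-inactivation genes (median 1.95), glucocorticoid-responsive genes had the highest median of the lists, 1.53. Of 27 measured, 13 (48.1%) were 2-fold or more above and 1 below. Fkbp5, a cochaperone gene of the glucocorticoid receptor and one of its standard targets, lay at 2.07 and 2.496, Klf9 at 2.68 and 2.71, Errfi1 at 2.39 and 4.37, the growth arrest gene Ddit4 at 2.11 and 1.98 and the glutamine synthetase gene Glul at 1.23 and 1.49. Tsc22d3, another standard target, lay at 0.36 and -0.86, and the receptor gene Nr3c1 at -0.196 and -0.93. The member below was Zfp36l2, an RNA-destabilising protein gene, at -1.24 and -2.56. Dusp1, Cebpd, Zfp36 and Nfkbia are counted in other lists as well. Both knockout arrays were above all 3 RelA+/- arrays in 14 of 26 genes (13.8% of all genes). Nothing in the sources used here gives the hour of sampling or the handling of the animals.

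Circadian clock genes lay above the pool on both arrays in 14 of 19 measured and below in 2. Cry1 and Cry2, which inhibit the clock's activators, lay at 1.27 and 1.297 (Cry1) and 1.24 and 2.198 (Cry2), Per3 at 1.52 and 2.44, Per1 at 0.98 and 1.28 and the repressor gene Nr1d1 at 1.76 and 1.19. The output gene Hlf lay at 2.105 and 2.48, Nfil3 at 1.25 and 1.33, and the repressor gene Bhlhe40 at 1.09 and 3.26, while its relative Bhlhe41 lay at -0.54 and -1.34. The activator gene Clock lay at 0.84 and 1.32, whereas its partner Arntl, for BMAL1, lay at -0.12 and -0.41, and Dbp, an output gene of strong daily rhythm, at 0.17 and 0.41. Per2 had probes that disagreed in sign (-0.089 and 1.64). Of 19 measured, 7 (36.8%) were 2-fold or more above and none below. Cry1 had a mean of 1.29 ± 0.42 (SE, n = 2) and lay at 0.057, 0.49 and -0.93 on the RelA+/- arrays. The E-box CACGTG, the binding letters of CLOCK and BMAL1, was present in 4 of 16 clock promoters (25%) and 9.76% of all promoters. That of Cry1 is shown in RefSeq bases of GRCm38.p6 at chr10:85185069-85185154 on the reverse strand, with the E-box in capitals.
Cry1: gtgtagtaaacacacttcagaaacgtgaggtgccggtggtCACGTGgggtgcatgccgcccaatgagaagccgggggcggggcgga

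Growth hormone and insulin-like growth factor genes lay above the pool in 16 of 22 measured, 7 of them 2-fold or more (31.8%). The ligand gene Igf2 lay at 1.94 and 2.28, and Igf1, the growth hormone-dependent ligand gene, at -0.32 and -0.98. The growth hormone receptor gene Ghr lay at 1.37 and 1.74, its feedback inhibitor gene Socs2 at 1.57 and 1.82, the substrate gene Irs1 at 1.43 and 1.52 and the receptor gene Igf1r at 0.36 and 0.077. Binding proteins diverged. Igfbp3 lay at 1.903 and 1.25, Igfbp4 at 1.75 and 1.31 and Igfbp7 at 1.59 and 1.35, and Igfbp2 at -3.59 and -4.68. Igfbp2 had a mean of -4.13 ± 0.57 (SE, n = 2) and lay at -1.35, 0.78 and -0.79 on the RelA+/- arrays. Igfbp1 had a value only on array 2, -7.197. Both medians of this list, 0.643 and 0.736, were above the RelA+/- medians of -0.438, -0.018 and -0.445.

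**Figure D4:**
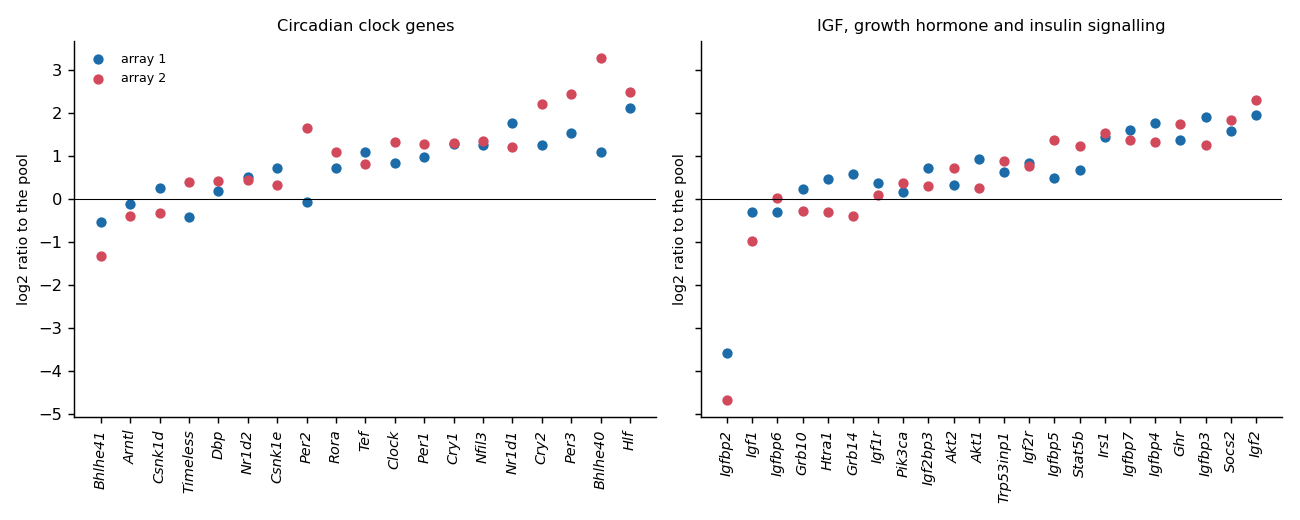
Log2 ratio to the pool on knockout arrays 1 (blue) and 2 (red) for each measured circadian clock gene (left) and each gene of insulin-like growth factor, growth hormone and insulin signalling (right), in order of the mean of both arrays. Hlf is the highest clock gene, at 2.105 and 2.48, and Igfbp2 the lowest gene of the growth list, at -3.59 and -4.68.

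Imprinted growth genes were above the pool in 11 of 15 measured and below on both arrays in none. Peg3, Igf2 and Cdkn1c have been given above. Mkrn3 lay at 2.22 and 1.36, Gnas, for a G protein alpha subunit with imprinted promoters, at 1.32 and 2.29, and Impact at 1.15 and 1.75, and Mest lay at 0.61 and 0.71 and Ndn at 0.61 and 0.69. In all 6 (40%) were 2-fold or more above, and the group holds paternally expressed genes (Peg3, Igf2) and a maternally expressed one (Cdkn1c). Plagl1, Magel2 and Usp29 were among members with no value on either array.

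Glycolysis genes, well-known metabolic targets of SIRT6, stayed mostly within 2-fold of the pool apart from the switch at pyruvate. Pdk4, the kinase gene that keeps pyruvate out of the citric acid cycle, lay at 2.35 and 2.497 with a mean of 2.43 ± 0.65 (SE, n = 2), and Pdk1 at 1.01 and 1.00. The glucose transporter gene Slc2a1 lay at 0.85 and 0.87, the hexokinase gene Hk2 at 0.67 and 0.61, the lactate dehydrogenase gene Ldha at 0.63 and 0.53, and Pfkfb3 and Pfkfb4, for regulators of phosphofructokinase, at 0.65 and 1.14 (Pfkfb3) and 1.21 and 0.82 (Pfkfb4). Pfkm, for the muscle form of phosphofructokinase, lay at -1.52 and -1.83, and Hk1 at -0.93 and -1.28. Of 23 measured genes 15 were above on both arrays, though only 2 (8.70%) were 2-fold above, close to the 8.86% over all genes. Hypoxia-response genes were above in 11 of 15, among them Bnip3 (2.76 and 1.76), with Hif1a at 0.93 and 0.98 and Adm, for adrenomedullin, at 1.91 and 0.89, while Car9 lay at 0.16 and -0.040.

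Fasting-induced genes lay on both sides. Txnip, an inhibitor of thioredoxin and of glucose uptake, lay at 2.48 and 2.36, Klf15 at 2.06 and 2.07 and Angptl4, for an inhibitor of lipoprotein lipase, at 2.27 and 1.14. Pck1, the first enzyme gene of gluconeogenesis, lay at -1.89 and -2.05, Foxo3 at -1.599 and -1.09 and Sesn3 at -0.52 and -0.88. On the RelA+/- arrays Pck1 lay at 0.65, -4.80 and 1.34, and the medians of the liver and muscle list were 0.44, -3.34 and 1.77. The part of liver tissue in the values of Pck1 was not tested. Fatty acid oxidation genes included Cpt1a, which admits fatty acids to mitochondria, at 0.897 and 1.32, Acadsb at 3.67 and 2.75, Acot1 at 1.89 and 1.32, Crat at -1.61 and -2.47 and Acadl at -0.68 and -1.49. Of the sterol genes Sqle lay at -1.73 and -2.63 and Idi1 at -1.61 and -1.06, while Fasn and Srebf1, of fatty acid synthesis, lay at 0.29 and 0.403 (Fasn) and 1.01 and 1.305 (Srebf1). Of 18 measured genes of the amino acid response, 8 were below and 4 above on both arrays. Those below included the asparagine synthetase gene Asns at -1.67 and -0.82, Mthfd2 at -1.95 and -1.08, Shmt2 at -1.66 and -2.19 and the regulator gene Atf4 at -0.78 and -0.46. The 2 genes 2-fold or more above were Vldlr (3.21 and 1.80) and Cebpb (1.30 and 2.44), against 3 below.

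Antioxidant genes lay on both sides of the pool. The thioredoxin gene Txn1 lay at -3.44 and -3.64 with a mean of -3.54 ± 0.52 (SE, n = 2), the peroxiredoxin genes Prdx2 (-1.96 and -2.04) and Prdx3 (-1.32 and -1.74), and Txnrd2 at -1.86 and -1.56. Among targets of the stress factor NRF2, Nqo1 lay at -1.77 and -2.24 and the glutathione synthesis genes Gclm (-1.89 and -1.91) and Gclc (-1.31 and -0.82), though Hmox1, which the same factor can drive, was above 0. Plasma selenoprotein genes Selenop lay at 2.97 and 2.64 and Gpx3 at 1.68 and 2.08, and the glutathione transferase gene Gsta3 at 2.08 and 2.21. Prdx2, Mgst3 and Gpx1 are also red cell genes. Of 40 measured genes 5 were 2-fold or more above and 8 (20%) below.

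Stromal and matrix genes lay above the pool in 37 of 54 measured, 15 of them 2-fold or more (27.8%). Receptors of mesenchymal cells, Pdgfra and Pdgfrb, lay at 2.87 and 3.04 (Pdgfra) and 2.44 and 2.81 (Pdgfrb), the signalling modifiers Bmper (3.02 and 3.002) and Sfrp2 (2.06 and 2.81), the proteoglycan genes Omd (4.06 and 2.56) and Prelp (1.34 and 1.48), and the protease genes Mmp14 (1.31 and 1.93) and Mmp3 (1.399 and 1.23). Pdgfra had a mean of 2.96 ± 0.37 (SE, n = 2) and lay at -0.14, -1.01 and -1.11 on the RelA+/- arrays. Tnc, for tenascin C, was lowest at -3.75 and -4.88, and the microfibril genes Mfap4 lay at -1.62 and -3.24 and Mfap2 at -1.04 and -2.47. Of 28 measured collagen and collagen-processing genes, 15 were above and 7 below on both arrays, 8 and 2 of them by 2-fold or more. The lysyl oxidase gene Lox lay at 3.03 and 3.51, Plod2 at 1.22 and 1.34 and the basement membrane gene Col4a2 at 1.35 and 1.39. Fibrillar chains differed, with Col1a2 at 1.44 and 1.22 but Col1a1 at -0.71 and -1.38 and Col3a1 at -2.66 and -1.21. In 30 of 45 matrix genes measured on all 5 arrays both knockout arrays were above all 3 RelA+/- arrays (13.8% of all genes).

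Transcription factor genes of the spleen's mesenchyme were above the pool, with Tlx1, which the spleen needs to form, at 2.41 and 2.46, Wt1 at 2.32 and 3.69, Tcf21 at 1.89 and 1.93 and Nkx2-5 at 1.08 and 0.67, whereas the mesothelial surface genes Msln lay at -1.18 and -0.701 and Upk3b at -1.27 and -0.97. Over the mesothelial list, which also holds Wt1, Tcf21 and Nkx2-5, 9 of 21 measured genes were above and 6 below on both arrays, with a median of 0.2795. Its 2 genes 2-fold or more above were Wt1 and Tcf21. The 3 defining mesothelial genes, Msln, Upk3b and Lrrn4 (-0.601 and -0.045), were all below on both arrays. Of 15 measured smooth muscle and capsule genes none was 2-fold from the pool on both arrays, with Myh11 at 0.29 and 1.26 and Acta2 at -0.56 and -1.64. Endothelial genes were above in 24 of 33, led by Robo4 (1.93 and 2.36), Ptprb (1.65 and 4.75), Bmx (2.94 and 1.75), the growth factor receptor gene Kdr (1.06 and 1.46) and the cadherin gene Cdh5 (1.05 and 1.84). Madcam1, the addressin gene of marginal sinus cells, lay at -1.96 and -2.52, Aplnr, for the apelin receptor, at -2.82 and -3.14 and Emcn at -1.41 and -1.24. Of these 33 genes 6 (18.2%) were 2-fold or more above and 3 (9.09%) below.

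Pancreas and liver genes lay far below the pool. Of 15 exocrine pancreas genes, 12 (80%) were 2-fold or more below, among them the colipase gene Clps at -4.25 and -2.94, the kallikrein gene Klk1 at -3.51 and -4.17 and the trypsin gene Try4 at -2.86 and -3.47. The exception was the elastase gene Cela1 at 0.36 and 0.28. The array medians of this list were 1.22, -0.29 and -2.11 on the RelA+/- arrays. Of 10 measured liver and muscle genes, 8 were 2-fold or more below, and all 8 are liver plasma protein or enzyme genes, such as Alb at -2.23 and -1.62, Ahsg at -2.55 and -2.03 and Cyp2e1 at -1.45 and -1.44. The medians of the liver and muscle list were 0.44, -3.34 and 1.77 on the RelA+/- arrays. Adipocyte genes were above the pool on both arrays in 7 of 11 measured and below in 4, with Adipoq, for adiponectin, at -3.72 and -3.21 and Car3 at -2.94 and -3.02, but Lpl, Pnpla2 and Fabp4, which other cells also express, at 1.12 and 1.03 (Lpl), 1.25 and 1.14 (Pnpla2) and 1.01 and 1.695 (Fabp4). Neuron and Schwann cell genes were above in 4 of 11 and below in 6. Dbh, the noradrenaline synthesis enzyme gene of sympathetic neurons, lay at -2.399 and -3.91. How much of such tissue each sample or the pool held was not tested.

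Genes of protein synthesis and breakdown lay on different sides of the pool. Cytosolic ribosomal protein genes were above the pool in 44 of 65 measured, 15 (23.1%) by 2-fold or more, with Rps28 at 1.53 and 2.296, Rps29 at 1.41 and 1.53 and Rps14 at 1.41 and 1.47, while Rpl31 lay at -1.56 and -1.46, Rpl13a at -1.38 and -1.61 and Rpl14 at -1.31 and -1.14. These genes have many processed pseudogenes. The medians of the cytosolic list were 0.894 and 0.591 in the knockout and 0.8365, 1.49 and 1.081 with RelA+/-. In 29 of 65 genes both knockout arrays were below all 3 RelA+/- arrays (14.4% of all genes). With each probe on its own the knockout median was 0.3375, against 0.6385 by gene. Mitochondrial ribosomal protein genes were below in 51 of 68, with 4 (5.88%) below by 2-fold or more, Mrpl32, Mrps25, Mrpl49 and Mrpl48, and 1 above, Mrps14 at 1.52 and 1.76. Proteasome genes were below in 28 of 36 and none by 2-fold on both arrays, while Psmb6, for a catalytic subunit, lay at 2.78 and 2.08. Aminoacyl-tRNA synthetase genes were below in 10 of 15, with Iars at -1.22 and -1.51 and Wars, also induced by interferon, at -0.81 and -2.14. Oxidative phosphorylation genes were below in 43 of 65, and 1 by 2-fold, Ndufab1 at -1.66 and -1.65. Of 37 measured heat shock and chaperonin genes, 22 were below and 9 above on both arrays, with 6 (16.2%) below by 2-fold or more. Among those below, the chaperone genes Dnaja1 lay at -1.68 and -1.699, Hsph1 at -1.79 and -1.09 and Hsp90aa1 at -1.31 and -0.601. The chaperonin genes Cct4 (-1.99 and -1.57) and Cct7 (-1.69 and -1.58) were below as well. The shares below on both arrays, 75% for the mitochondrial ribosome and 40.9% over all genes, stand beside list medians of -0.384 and -0.639.

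Other lists lay close to the background. Of 28 measured autophagy and lysosome genes 4 were 2-fold or more above and none below, of 25 platelet genes 2 above and none below, and of 24 fatty acid oxidation genes 3 above and 2 below. Of 23 citric acid cycle genes none was above and 1 below, of 26 cell death genes 1 above and 2 below, of 36 splicing genes 1 above and 2 below, and of 13 telomere genes none above and 2 below. Class I antigen presentation genes had 1 of 15 above and none below, plasma cell genes 1 of 15 below, complement genes 1 of 17 on each side and ribosome biogenesis genes 2 of 35 below.

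By chromosome, medians lay between -0.226 on chromosome 13, which carries histone clusters, and 0.06 on chromosome 12, apart from the Y chromosome. Of the 20 annotated genes on each side of Sirt6, 15 had values on both arrays, with a median of -0.045. The 1 gene 2-fold or more above was Nfic, a nuclear factor gene, at 5.46 and 2.84, and the 2 below were Fzr1, an activator of the anaphase-promoting complex, at -1.46 and -1.49 and Ankrd24 at -2.57 and -1.98. At higher coordinates than Sirt6 only Ankrd24, the next gene, and Zfp781 (-0.417 and -1.15) had values on both arrays, so that this side was hardly measured. Ankrd24 lay at -2.045 and -2.658 on RelA+/- arrays 2 and 3 and had no value on array 1.

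The knockout and RelA+/- groups were compared in the same fit for 9557 genes with values on both knockout and at least 2 RelA+/- arrays. Limma called 0 genes (0.0%) at an adjusted p under 0.05, with a smallest adjusted p of 0.228, and 894 genes (9.35%) at an unadjusted p under 0.05. For 11 lists the median lay on 1 side of the pool on both knockout arrays and on the other side on all 3 RelA+/- arrays, as the plot of these lists shows. They include matrix genes and collagens, above the pool in the knockout, and aminoacyl-tRNA synthetase and heat shock genes, below it. The difference was not tested for the lists. The RelA+/- arrays correlated with each other at r = 0.335 at most, so that they are not a uniform group. Rela, measured by 1 probe, lay at 1.15 on the array labelled RelA+/- 1, the level of the knockout arrays. On RelA+/- arrays 2 and 3 it lay at -0.084 and -0.198, near the level of the pool. This probe therefore bears out the label on none of the 3 arrays.

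**Figure D5:**
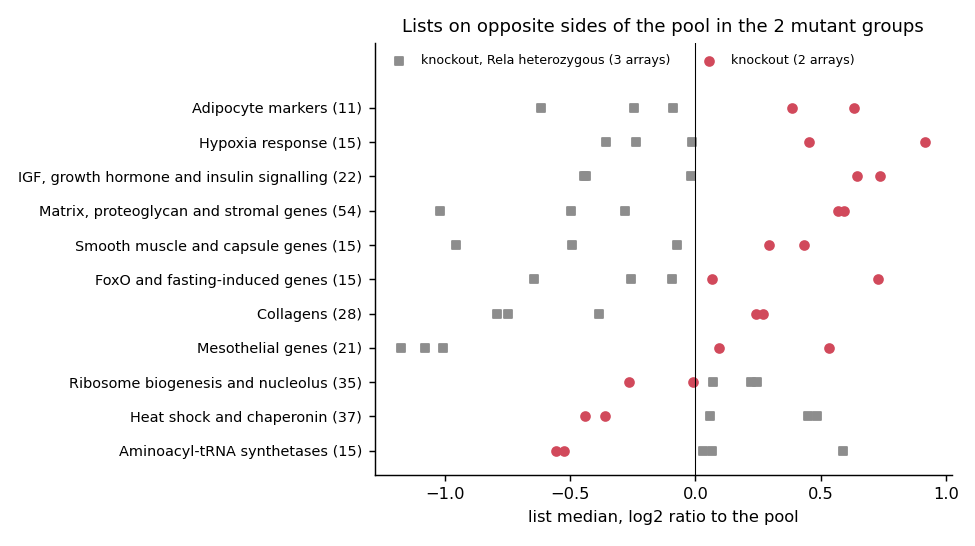
Median log2 ratio to the pool of 11 gene lists on each knockout array (red circles) and each array of knockout spleens heterozygous for Rela (grey squares), with the number of members measured on both knockout arrays in brackets. The matrix list lies at 0.57 and 0.594 on the knockout arrays and at -0.497, -0.283 and -1.02 on the others.

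Precision is limited by the 2 arrays and by the probes. Among 2338 genes with 2 measured probes, the probes lay on the same side of the pool in 65.4%, and in 71.6% of the 1078 genes with a probe at 2-fold. With no dye swap a probe's dye effect is part of its value, and 1 pool gives no variation among wild-type animals.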

How the data were processed

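Spleen RNA of 5 mutant samples was measured on 2-colour arrays, with total RNA extracted with TRIzol and the dyes assigned per the labels' protocols. The authors deposited 1 processed value per spot, read here as a log2 ratio of Cy5 (mutant) to Cy3 (pool). The sources used here give neither its base, direction, background correction nor normalization. The values lie about evenly on both sides of 0, and the deposited medians of the 5 arrays lay between -0.039 and 0.004. Of 38784 spots, 22274 and 22851 had a value on knockout arrays 1 and 2, and 19768 to 22871 on the other arrays. Probes were named through the platform's annotation, 22204 of them with 1 gene.

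Each array was centred on its median and the probes of a gene were averaged. The mean of each group was tested against 0 with limma 3.58.1 in R 4.3.3 (lmFit, eBayes; Benjamini-Hochberg, threshold 0.05), on the 9961 genes with a value on both knockout arrays, all 5 arrays in 1 fit; missing values of the RelA+/- arrays left 855 genes with fewer of these arrays and 106 with none. The test takes the pool as 1 control sample and leaves out its spread. The script was tested on simulated data. Python 3.11.15 and matplotlib 3.10.9 made the descriptions and plots.

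Genes named are Sirt6 and Rela, the 12 farthest above and below by the smaller of the 2 array values (1 predicted gene symbol was passed over), up to 4 on each side from each of 63 gene lists by the same rank, and defining members by role. Members and lists were chosen with earlier results of these data known, so that no list is independent evidence of its direction. Promoters are RefSeq's, GRCm38.p6. Alternatives were other centring and scaling, probe rules, folds, sets of arrays and a replicate block.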

Additional observations from a re-analysis of the deposited data

Results flagged for a closer look

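The medians of 11 gene lists lay on 1 side of the pool on both knockout arrays and on the other side on all 3 RelA+/- arrays; the difference was not tested. The knockout medians were 0.78 for hypoxia-response genes, 0.786 for adipocyte genes, 0.4345 for FoxO and fasting genes and 0.6672 for insulin-like growth factor and growth hormone genes. They were 0.3616 for collagens, 0.6036 for matrix genes, 0.4638 for smooth muscle genes and 0.2795 for mesothelial genes. Below the pool they were -0.6175 for aminoacyl-tRNA synthetases, -0.2295 for ribosome biogenesis genes and -0.2305 for heat shock and chaperonin genes. Leaving out 1 knockout array moved several of these by over 1.5 times. Without knockout array 2 they were 0.451 for hypoxia-response, 0.384 for adipocyte, 0.065 for FoxO and fasting, 0.294 for smooth muscle, 0.093 for mesothelial and -0.441 for heat shock genes. Without knockout array 1 they were 0.7273 for FoxO and fasting, 0.533 for mesothelial, -0.3605 for heat shock and -0.0085 for ribosome biogenesis genes. The medians of the other lists moved by less than 1.5 times.

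The stefin gene Stfa2l1 had a mean of 4.5 on the knockout arrays and lay below the pool on every RelA+/- array, at -3.54, -0.46 and -4.89. Limma's test of the difference gave an adjusted p of 0.228 over 9557 genes.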

How the results depend on the processing

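The count of genes past the adjusted threshold was 0 against the pool and 0 against the RelA+/- group. Leaving out the 25% of genes that varied least over the 5 arrays gave 829 against the pool and 171 for the difference. That filter uses the tested values and raised limma's prior degrees of freedom from 3.37 to 56.6. With only the 2 knockout arrays, and 1 residual degree of freedom, 3057 were called against the pool. It was 0 under the other alternatives run. At an unadjusted p, the 2126 genes against the pool became 4551 with only the 2 knockout arrays and ranged from 614 to 2989 when 1 array was left out, the lowest without knockout array 2 and the highest without RelA+/- array 1. Without knockout array 1 the count was 862, and in that fit as in the one without array 2 the lone array is assumed to vary like the other group. The 894 genes of the difference ranged from 335 without knockout array 2 and 388 without knockout array 1 to 1365 without RelA+/- array 1.

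Of the genes 2-fold or more from the pool, 883 above and 995 below, a single array gave 1244 to 1543 above and 1278 to 1823 below. The counts at 1.5-fold were 1773 and 1793, and at 4-fold 175 and 257. With each probe on its own, 1271 probes were above and 1632 below out of 14556, which are probes and not genes. Of 504 alternatives for the 63 list medians, 413 moved by less than the spread between the arrays. Lists whose 2 array medians lay on different sides of the pool were not counted as turned, though some changed sign. T cell genes, for example, went from 0.111 to -0.112 without knockout array 1. Among the other lists, 7 alternatives turned the sign. These were cell death genes at -0.0115 (quantile scaling), -0.0066 (scaling to equal spread), -0.0557 (median of probes) and -0.0155 and -0.035 (1 array each), class I antigen presentation genes at 0.0525 and the Y-linked and X-inactivation genes at -0.1695, both with each probe on its own. None of 189 alternatives for 25 named genes turned a sign. Most of these genes were picked as the farthest from the pool on both knockout arrays. Rescaling or leaving out 1 knockout array could hardly turn their sign, so that this count does not test how stable the signs are. Quantile scaling put 45.5% of unadjusted calls above the pool against 50.8%. The replicate number as a block gave 0 adjusted and 2750 unadjusted calls. Deviations of same-numbered arrays correlated at -0.41 and -0.40. With 2 knockout arrays the knockout deviations mirror each other, so that this check cannot decide whether the numbers pair the samples. The values give no signal over background, so that the precision of single spots is unknown.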
